A study of Mus musculus with 8 samples.

Results

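The genes described here encode the nuclear subunits of the oxidative phosphorylation complexes I to V, with the assembly factors and tissue isoforms that share their symbols. They were chosen by name, as protein-coding mouse genes whose symbol begins with Nduf, Sdha, Sdhb, Sdhc, Sdhd, Uqcr, Cox4, Cox5, Cox6, Cox7, Cox8 or Atp5, plus Cyc1. The rule reads symbols alone. GENCODE release M21 holds 99 such genes under 98 symbols, and 92 of them were among the 16341 genes in the deposited count table. Of these, 88 passed the filter on low counts and were among the 11717 genes tested. The 7 genes outside the table were Ndufaf8, Cox6b2, Cox7b2, Cox8b, Cox8c, Ndufa4l2 and a second Atp5o identifier, and the 4 counted but not tested were Ndufs5, Cox4i2, Cox6a2 and Cox7a1. The tested genes divide into 42 of complex I, 8 of complex II, 9 of complex III, 12 of complex IV and 17 of complex V, with Ndufa4 placed in complex IV, where its product is found. A further 12 pseudogenes and 1 noncoding gene with matching symbols were left out, and none of them was in the table.

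RNA-Seq was performed on 4T1 cells, a mouse mammary carcinoma line, after magnetic sorting by SCA1, the surface protein encoded by Ly6a. There were 4 libraries of 4T1-Sca1+ and 4 of 4T1-Sca1- cells, with no other treatment in the labels, and the comparison asks how the transcripts of the sorted fractions differ. The source label and the authors' paper name the parental 4T1 line as the origin. The protocol text speaks of stained tumor, and another label gives the fractions as CD45-. The groups are named here by line and marker. The labels do not say whether the libraries came from separate sorts, and p-values then measure only the spread between these libraries.

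Libraries held 13561804 to 16968215 counts. Ly6a had 167 ± 20.2 normalized counts in 4T1-Sca1+ and 1.79 ± 1.73 in 4T1-Sca1- cells (SD, n = 4). Of 8 epithelial markers, Epcam, Cdh1, Krt7, Krt8, Krt18, Krt19 and Krt14 were counted in every library, and Krt5 had at most 2 counts (2 higher and 3 lower of 7 tested). Leukocyte markers summed to 74.2 to 78.2 CPM, counts scaled to library size, in 4T1-Sca1+ and 69.8 to 76.3 in 4T1-Sca1- libraries, with Ptprc at no more than 4 counts in any library, 9 of 14 counted markers at 10 counts or fewer, and 4 called higher and 1 lower of 5 tested. Fibroblast markers summed to 204 to 220 CPM against 150 to 172, with 3 of 4 tested called higher in 4T1-Sca1+ cells, and endothelial markers to 2.30 to 2.89 against 2.85 to 4.34, with the 1 tested called lower. The part of these markers in the results below was not tested. Within groups, 43.6% of the variance over 9618 genes lay on a component whose gene loadings followed transcript GC content (Spearman's rho across genes 0.77), and 4T1-Sca1+ replicate 3 and 4T1-Sca1- replicate 2 stood at its end. Counts of calls are therefore also given without both libraries.

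Complexes I to IV form the respiratory chain of the inner mitochondrial membrane. Complex I takes electrons from NADH and complex II from succinate, coenzyme Q carries them to complex III, cytochrome c carries them on to complex IV, and oxygen receives them there. Complexes I, III and IV pump protons, and complex V, the ATP synthase, uses the resulting gradient to make ATP. All but complex II also contain subunits encoded by mitochondrial DNA, but no mitochondrially encoded gene was in the count table, so only the nuclear share of each complex is described.

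Promoter windows were examined because these genes are known targets of shared factors, among them NRF1, the ETS factor GABP, YY1 and the estrogen-related receptors. RefSeq windows on GRCm38.p6, running from 250 bases before to 50 after an annotated start, were found for 79 of the 99 genes. Among the 20 without one were Ndufa2, Ndufb9, Ndufaf6, Ndufs1, Sdhc, Uqcrb, Uqcrc2, Uqcrq, Cyc1, Cox4i1, Cox6c, Cox4i2, Cox6a2, Cox8c, Ndufa4l2, Atp5f1, Atp5mpl, Atp5s and Atp5a1. The NRF1 core GCGCATGC was searched on both strands, as were the other motifs, and stood in windows of 12 of the 79 genes (15.2%), against 3.05% of all 27025 genes with a window. It is shown in capitals in the 250 bases before the start of 3 genes, of which Ndufa11 and Ndufaf4 were lower in 4T1-Sca1+ cells and Cox6a1 was not called. All are written 5′ to 3′ on the gene's strand. The core and its reverse complement overlap in each, which makes the capital run longer than the core.
Ndufa11, chr17:56717512-56717761, plus strand: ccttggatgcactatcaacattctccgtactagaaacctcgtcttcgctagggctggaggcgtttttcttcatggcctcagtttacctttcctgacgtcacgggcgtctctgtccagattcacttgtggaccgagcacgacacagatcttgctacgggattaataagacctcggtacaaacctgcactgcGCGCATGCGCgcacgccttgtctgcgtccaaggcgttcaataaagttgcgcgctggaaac
Ndufaf4, chr4:24897833-24898082, plus strand: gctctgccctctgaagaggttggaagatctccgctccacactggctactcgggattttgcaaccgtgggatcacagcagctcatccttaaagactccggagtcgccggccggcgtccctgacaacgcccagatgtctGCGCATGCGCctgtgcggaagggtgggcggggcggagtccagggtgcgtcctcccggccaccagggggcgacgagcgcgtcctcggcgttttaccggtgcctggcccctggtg
Cox6a1, chr5:115348959-115349208, minus strand: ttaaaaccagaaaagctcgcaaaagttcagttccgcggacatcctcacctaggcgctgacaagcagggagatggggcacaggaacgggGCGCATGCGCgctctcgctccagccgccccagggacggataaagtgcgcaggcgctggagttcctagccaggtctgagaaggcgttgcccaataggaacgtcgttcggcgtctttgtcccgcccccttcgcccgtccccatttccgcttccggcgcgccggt
The core begins 60 bases before the annotated start in Ndufa11, 113 before it in Ndufaf4 and 162 before it in Cox6a1.

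Transcripts of complexes I, II and III were lower in 4T1-Sca1+ than in 4T1-Sca1- cells for many genes (47.6%, 62.5% and 77.8% of those tested), by small amounts. In complex V 35.3% and in complex IV 25.0% were called lower, shares near the 30.2% of all genes tested. Called higher were 17.6% in complex V and 8.33% in complex IV, against 31.3% of all genes tested. With GC-corrected offsets, 8 of 17 genes of complex V and 4 of 12 of complex IV were lower, beside 3880 of all 11717 genes. The difference between complexes was not tested. Over all complexes, 41 of the 88 tested genes (46.6%) were lower and 11 (12.5%) higher in 4T1-Sca1+ cells by edgeR's quasi-likelihood test with adjusted p below 0.05 called, and 36 were not called. Errors beside log2 fold changes are standard errors (SE). Among all 11717 genes tested, 30.2% were called lower and 31.3% higher by the same test. The median log2 fold change of the 88 genes was -0.13, beside 0.01 over all genes tested, and 64 of the 88 values were below 0. None of the 88 changed by 2-fold, and 48 of the 52 called genes changed by less than 1.5-fold. In 35 genes all 4T1-Sca1+ libraries lay below all 4T1-Sca1- libraries and in 9 all lay above, while over all tested genes the groups were apart in these directions for 27.9% and 26.8%. With library totals alone as the scaling, the split was 32 lower and 16 higher, beside 2984 and 4118 of all 11717 genes tested. With length-corrected offsets the split was 35 and 15, beside 3638 and 3590, with a median of -0.087 beside -0.0013. Without both libraries at the end of the GC component the split was 48 and 13, beside 3623 and 3618 of 11771 genes tested. The number called higher changed with single libraries, falling to 7 without 4T1-Sca1+ replicate 4 and to 6 without 4T1-Sca1- replicate 1 or replicate 3. Over all genes tested, 3668 were called higher with all libraries, and 3433, 3397 and 3437 in these fits in turn. In these bulk samples, fewer cells making a transcript and less of it per cell cannot be told apart.

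**Figure D1:**
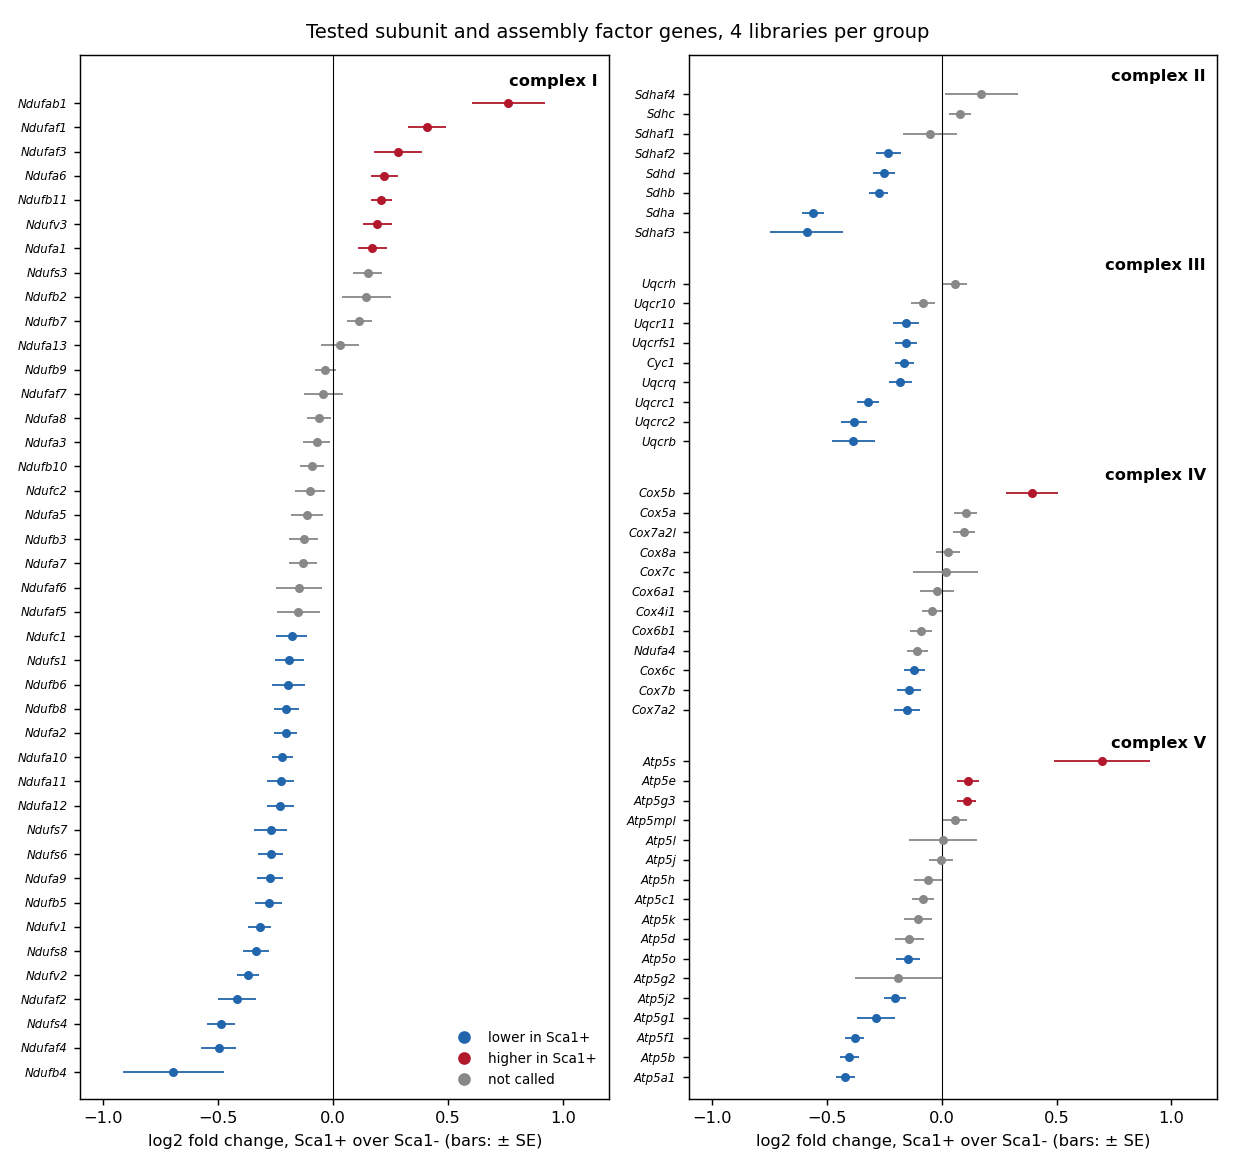
Log2 fold change of 4T1-Sca1+ over 4T1-Sca1- cells (horizontal axis) for tested genes by complex, with bars of ± 1 standard error and colors for the call at an adjusted p under 0.05. Complexes II and III hold no gene called higher, most of complex IV lies close to 0, and the values run from -0.70 (Ndufb4) to 0.76 (Ndufab1).

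The mean log2 CPM over the genes of a complex was lower in 4T1-Sca1+ cells for 4 of the 5 complexes. For complex II it was 5.04 ± 0.06 in 4T1-Sca1+ and 5.24 ± 0.03 in 4T1-Sca1- libraries (SD, n = 4), and for complex III 6.73 ± 0.03 and 6.93 ± 0.01. For complex I it was 5.49 ± 0.03 and 5.59 ± 0.01, and for complex V 6.28 ± 0.02 and 6.36 ± 0.03. In each of these 4 complexes the highest 4T1-Sca1+ library lay below the lowest 4T1-Sca1- library. For complex IV the means were 6.95 ± 0.03 and 6.95 ± 0.05, and the groups overlapped. By role, 13 of 18 core subunits (the conserved peripheral arm of complex I, the 4 Sdh subunits, Cyc1, Uqcrfs1 and the F1 part of complex V) were lower and 1 higher (median -0.22). Of 57 accessory subunits 24 were lower and 7 higher (median -0.11), and of 13 assembly factors 4 were lower and 3 higher (median -0.05). The shares lower were 72.2% for core subunits, 42.1% for accessory subunits and 30.8% for assembly factors, beside 30.2% of all genes tested. The shares higher were 5.56%, 12.3% and 23.1%, beside 31.3%.

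**Figure D2:**
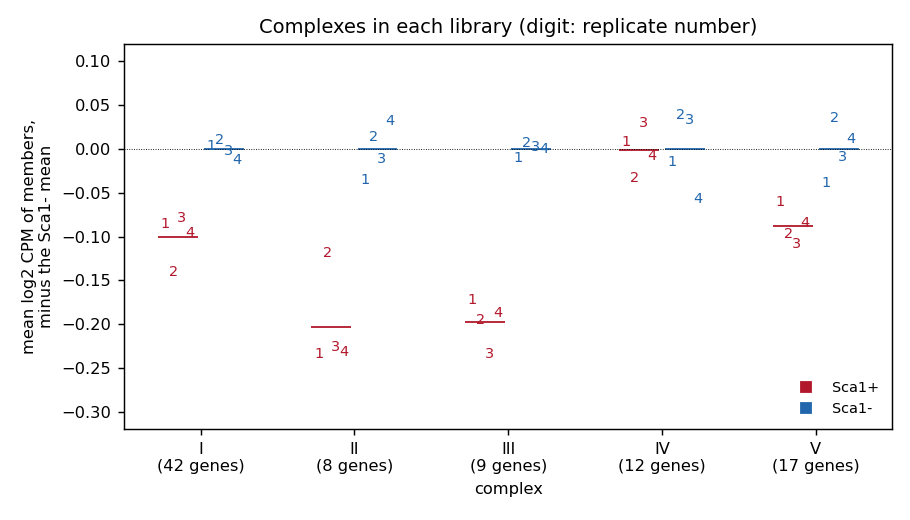
Mean log2 CPM of the tested genes of each complex in every library, as the difference from the 4T1-Sca1- mean of that complex (vertical axis); digits are replicate numbers and horizontal lines are group means. The groups are apart in complexes I, II, III and V and overlap in complex IV.

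Of 12 tested genes with the NRF1 core, 5 were called lower, 1 higher and 6 neither, with a median log2 fold change of -0.15, and of 60 tested genes with a window but no core, 26 were lower and 9 higher, with a median of -0.11. The YY1 core AAGATGGC stood in windows of 10 genes (12.7%, against 3.19% of all genes). Of the 9 tested with it, 7 were lower (Ndufa9, Ndufb8, Ndufc1, Ndufs4, Ndufs6, Ndufs7 and Atp5j2) and none was higher, while 24 of 63 without it were lower and 10 higher. The ETS core CCGGAAGT was present in 5 genes (6.33%, against 4.31%), of which 1 was lower and 4 were not called (median 0.03). The estrogen-related receptor site CAAGGTCA was present in 4 (5.06%, against 1.76%), and of the 3 tested 1 was lower, 1 higher and 1 not called (median 0.0060). Among all 11717 genes tested, 30.2% were called lower and 31.3% higher, and calls were not counted for other genes with these motifs. These matches are letters in a window and are given as a description, and the difference by motif was not tested.

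In complex I, 20 of 42 tested genes were lower in 4T1-Sca1+ cells and 7 higher (median log2 fold change -0.14). The core subunits of the peripheral arm oxidize NADH and pass electrons along iron-sulfur clusters. Ndufv1, which binds NADH and flavin, had normalized counts of 1934, 1803, 2077 and 1879 in the 4T1-Sca1+ libraries and 2295, 2524, 2397 and 2472 in the 4T1-Sca1- libraries. All 4T1-Sca1+ libraries were below all 4T1-Sca1- libraries, and the log2 fold change was -0.32 ± 0.05 (SE, adjusted p = 2.87e-05). Its partner Ndufv2 (-0.37) and the cluster-bearing Ndufs8 (-0.34) and Ndufs7 (-0.27) were lower as well. Ndufs1, the largest subunit, had normalized counts of 1804, 1734, 1451 and 1707 in the 4T1-Sca1+ libraries and 2039.9, 1778, 2015 and 1880.0 in the 4T1-Sca1- libraries, and the groups overlapped, with 4T1-Sca1- replicate 2 within the 4T1-Sca1+ range. Its log2 fold change of -0.19 ± 0.06 (SE, adjusted p = 0.0159) was no longer called without 4T1-Sca1- replicate 3 (adjusted p = 0.0528). The core subunit Ndufs3 was not called, at 0.15 ± 0.06 (SE, adjusted p = 0.0524).

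Accessory subunits of complex I moved in both directions, with 12 of 28 lower (42.9%) and 5 higher (17.9%), beside 30.2% and 31.3% of all genes tested. Ndufs4, which supports assembly of the NADH-oxidizing module, had normalized counts of 579, 542, 489 and 522 in the 4T1-Sca1+ libraries and 764, 709, 779 and 767 in the 4T1-Sca1- libraries. The groups were apart by a wide margin, and it fell by 28.7% (log2 fold change -0.49 ± 0.06, adjusted p = 2.71e-06). Ndufb4 had the lowest value of all 88 genes, -0.70 ± 0.22 (SE, adjusted p = 0.0108), but from few counts, 15.8 to 23.8 normalized counts against 22.6 to 36.5, with overlapping groups, and it is named after its value was seen. Ndufab1, the mitochondrial acyl carrier protein, which is a subunit of complex I and also serves fatty acid synthesis in the matrix, had the highest value. Ndufab1 (ENSMUSG00000030869, GRCm38 chromosome 7, 122085403 to 122101886, minus strand) had normalized counts of 281, 255, 332 and 269 in the 4T1-Sca1+ libraries and 229, 195, 141 and 102 in the 4T1-Sca1- libraries. The groups did not overlap, but the 4T1-Sca1- libraries were spread over a 2.26-fold range, the 2nd widest of 9618 genes with a mean of at least 100 normalized counts, where the median gene had a range of 1.13-fold. The log2 fold change was 0.76 ± 0.16 (SE, adjusted p = 0.00048), and it was 0.59 without 4T1-Sca1- replicate 4. Other genes called higher included Ndufa6 (0.22), Ndufb11 (0.21), Ndufv3 (0.19) and Ndufa1 (0.17), named after their values were seen.

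Assembly factors of complex I divided, with 2 of 7 lower and 2 higher (28.6% each), shares near the 30.2% and 31.3% of all genes tested. Ndufaf4, needed early in assembly, had normalized counts of 392, 337, 313 and 314 in the 4T1-Sca1+ libraries and 499, 445, 501 and 491 in the 4T1-Sca1- libraries. It was lower without overlap, with a log2 fold change of -0.50 ± 0.08 (SE, adjusted p = 2.44e-05). Ndufaf1, a factor of the intermediate that builds the membrane arm, had normalized counts of 269, 270.2, 276 and 273 in the 4T1-Sca1+ libraries and 193, 189, 207 and 241 in the 4T1-Sca1- libraries. It was higher without overlap, at 0.41 ± 0.08 (SE, adjusted p = 0.000375). Ndufaf2 fell by 0.42 and Ndufaf3 rose by 0.28 on the log2 scale. Without 4T1-Sca1- replicate 1 or replicate 3, the number of complex I genes called higher was 4.

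In complex II, which links the respiratory chain to the tricarboxylic acid cycle, 5 of 8 tested genes were lower and none was higher (median -0.24). Sdha, the flavoprotein that oxidizes succinate (ENSMUSG00000021577, GRCm38 chromosome 13, 74322254 to 74350280, minus strand), had normalized counts of 2924, 2695, 2584 and 2601 in the 4T1-Sca1+ libraries and 3843, 4009, 4016 and 4202 in the 4T1-Sca1- libraries. The highest 4T1-Sca1+ library was well below the lowest 4T1-Sca1- library. It fell by 32.1%, with a log2 fold change of -0.56 ± 0.05 (SE, adjusted p = 3.32e-08), the lowest value among genes of all complexes with at least 100 normalized counts. Sdhb, the iron-sulfur subunit, had normalized counts of 1903, 1935, 1857 and 1899 in the 4T1-Sca1+ libraries and 2269, 2323, 2369 and 2302 in the 4T1-Sca1- libraries, again with groups apart, and a log2 fold change of -0.27 ± 0.04 (SE, adjusted p = 2.37e-05). Of the membrane anchors, Sdhd was lower (-0.25 ± 0.05, adjusted p = 0.000209) and Sdhc was not called (0.08 ± 0.05, adjusted p = 0.171), with 1288 to 1377 against 1216 to 1348 normalized counts. The assembly factor Sdhaf2, which assists flavin attachment to Sdha, had a log2 fold change of -0.23 ± 0.05 (SE, adjusted p = 0.00129). Sdhaf3, also an assembly factor, was lower at -0.59 ± 0.16 (SE, adjusted p = 0.00403) from 27.4 to 33.3 against 41.1 to 51.3 normalized counts, and is named after its value was seen.

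In complex III, 7 of 9 tested genes were lower and none was higher (median -0.16), which was the largest share called lower among the 5 complexes. Uqcrc1 and Uqcrc2, the so-called core proteins on the matrix side, carry no redox center and are counted here as accessory subunits. Uqcrc1 had normalized counts of 5116, 4953, 4923 and 4445 in the 4T1-Sca1+ libraries and 6060.5, 6255, 5909 and 6292 in the 4T1-Sca1- libraries, without overlap, and a log2 fold change of -0.32 ± 0.05 (SE, adjusted p = 1.46e-05). Uqcrc2 had normalized counts of 2120.4, 2142, 1790.4 and 1938 in the 4T1-Sca1+ libraries and 2616, 2536, 2610.3 and 2737 in the 4T1-Sca1- libraries, also apart, and -0.38 ± 0.06 (SE, adjusted p = 1.38e-05). The redox subunits had values nearer to 0. Cyc1, cytochrome c1, had normalized counts of 2853, 2767, 2819.7 and 2696 in the 4T1-Sca1+ libraries and 3042, 3228, 3198 and 3100.2 in the 4T1-Sca1- libraries, with every 4T1-Sca1+ library below every 4T1-Sca1- library, and fell by 10.6% (log2 fold change -0.16 ± 0.04, adjusted p = 0.00325). Uqcrfs1, the Rieske iron-sulfur protein, had a log2 fold change of -0.16 ± 0.05 (SE, adjusted p = 0.00814), also with groups apart. Uqcrb, a small subunit, had the lowest value of the complex, -0.38 ± 0.09 (SE, adjusted p = 0.00186), and Uqcr11 the one nearest to 0 among those called, -0.15 ± 0.06 (SE, adjusted p = 0.0261). The call of Uqcr11 was lost without 4T1-Sca1+ replicate 2 (adjusted p = 0.102) or 4T1-Sca1- replicate 2 (adjusted p = 0.0915). Uqcrh (0.06) and Uqcr10 (-0.08) were not called.

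Complex IV, cytochrome c oxidase, had the median nearest to 0 of the 5 complexes. Its catalytic subunits are encoded by mitochondrial DNA and were not counted, and the nuclear subunits surround them. Of 12 tested genes 3 were lower and 1 was higher, with a median log2 fold change of -0.03. Cox4i1, a regulatory subunit present in most tissues, had normalized counts of 5500.4, 5075, 5434 and 5285 in the 4T1-Sca1+ libraries and 5194, 5747, 5678 and 5474 in the 4T1-Sca1- libraries. The groups overlapped over most of their range, with a log2 fold change of -0.04 ± 0.05 (SE, adjusted p = 0.46). Cox8a, at 0.03 ± 0.05 (SE, adjusted p = 0.673), and Cox6a1, at -0.02 ± 0.07 (SE, adjusted p = 0.83), were not called, and Cox6b1 was at -0.09 ± 0.05 (SE, adjusted p = 0.116). The signs of Cox4i1, Cox6a1 and Cox8a depended on scaling or on single libraries, and Cox8a turned negative without 4T1-Sca1+ replicate 3 or 4T1-Sca1- replicate 4. Cox5a (0.10 ± 0.05, adjusted p = 0.0806), the supercomplex factor Cox7a2l (0.10 ± 0.05, adjusted p = 0.0785) and Ndufa4 (-0.11 ± 0.05, adjusted p = 0.0559) were near the threshold. Ndufa4 had 4T1-Sca1+ libraries all below the 4T1-Sca1- libraries, and was called without 4T1-Sca1+ replicate 1 (adjusted p = 0.043) or 4T1-Sca1- replicate 2 (adjusted p = 0.0224).

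The 3 lower genes of complex IV were small subunits with changes of under 10% each. Cox7a2 had normalized counts of 1749, 1571, 1472 and 1461 in the 4T1-Sca1+ libraries and 1811, 1714, 1699.8 and 1774 in the 4T1-Sca1- libraries, with overlap, and a log2 fold change of -0.15 ± 0.06 (SE, adjusted p = 0.0294). Cox7b (-0.14 ± 0.05, adjusted p = 0.0275) and Cox6c (-0.12 ± 0.04, adjusted p = 0.0276) had groups apart. All 3 calls were lost without 4T1-Sca1- replicate 4, and 1 was left without 4T1-Sca1- replicate 3. Single calls were also lost without 4T1-Sca1+ replicate 2 (Cox6c), replicate 3 (Cox7b) and replicate 4 (Cox7a2), and Cox7a2 was lost without 4T1-Sca1- replicate 1. With library totals alone, no gene of complex IV was called lower and 3 were called higher. In that fit 2984 of all 11717 genes tested were lower and 4118 higher, with a median log2 fold change of 0.050. Cox5b, which binds zinc on the matrix side, was the gene called higher. Cox5b (ENSMUSG00000061518, GRCm38 chromosome 1, 36691449 to 36693681, plus strand) had normalized counts of 1136, 1102, 1369 and 1311 in the 4T1-Sca1+ libraries and 1027, 1084, 1014 and 643 in the 4T1-Sca1- libraries. The lowest 4T1-Sca1+ library stood just above the highest 4T1-Sca1- library, and 4T1-Sca1- replicate 4 was far below the other 3. Its log2 fold change was 0.39 ± 0.11 (SE, adjusted p = 0.00576), and 0.25 (adjusted p = 0.00746) without that library. With DESeq2 it was not called (adjusted p = 0.0557). The same library was lowest for Ndufab1 and for Ndufb2, whose values in 4T1-Sca1- cells were 530.0, 527, 441 and 347, and of the 81 members with a mean of at least 100 normalized counts these 3 had a range of 1.5-fold or more within 4T1-Sca1- cells, as had 87 of 9618 genes at that level. Ndufb4 and Atp5s, with fewer counts, had one too.

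**Figure D3:**
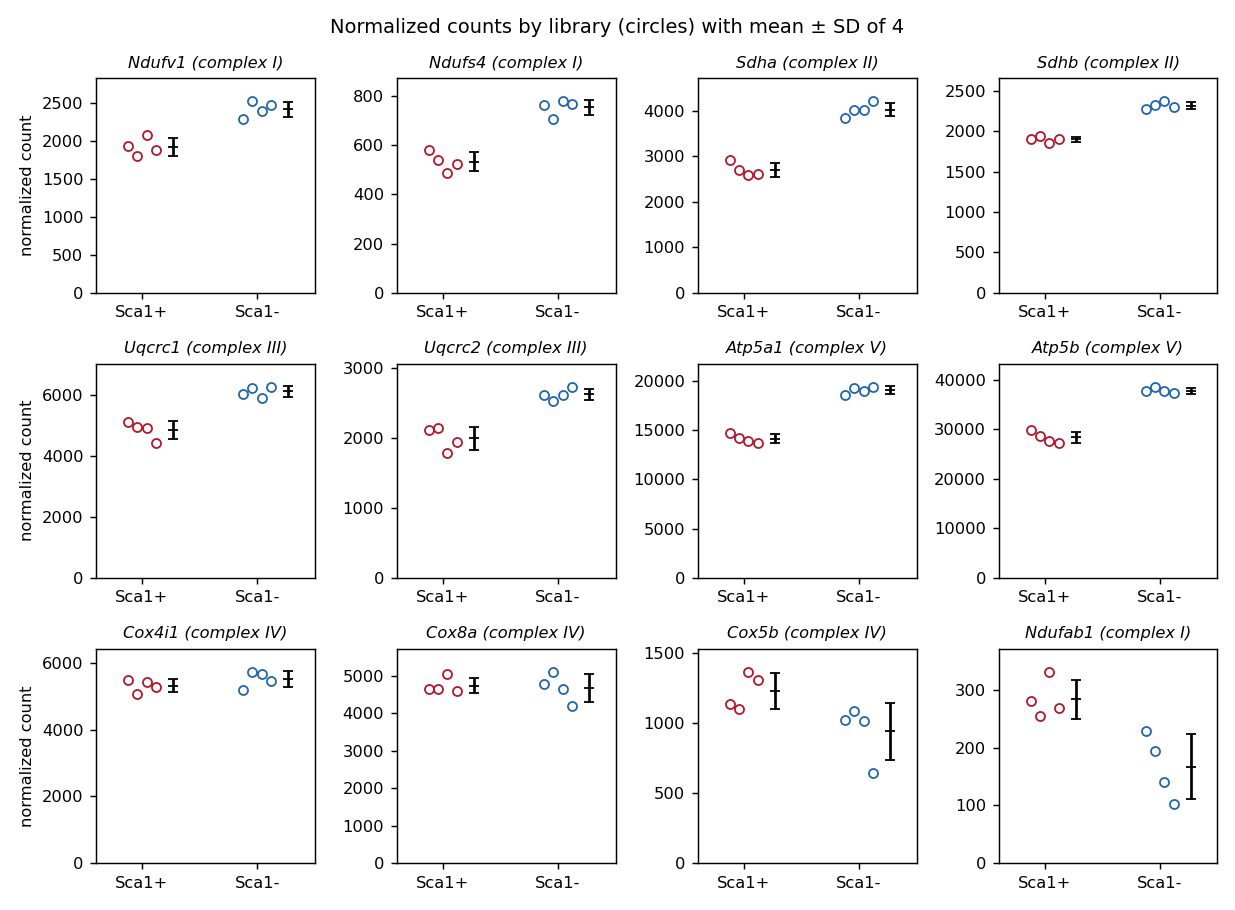
Normalized counts (vertical axes, from 0) of 12 genes in every library, with black marks for the mean ± SD of 4 libraries. Groups are apart in Ndufv1, Ndufs4, Sdha, Sdhb, Uqcrc1, Uqcrc2, Atp5a1 and Atp5b, overlap in Cox4i1 and Cox8a, and are apart but widely spread within 4T1-Sca1- cells in Cox5b and Ndufab1.

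Tissue isoforms of complex IV were at or near 0. Cox4i2, Cox6a2 and Cox7a1, known from lung or from heart and skeletal muscle, had at most 2, 1 and 2 counts in any library, while their partners Cox4i1, Cox6a1 and Cox7a2 had at least 1461 normalized counts in every library. Per transcript length, Cox8a (558 ± 44.2 CPM per kilobase in 4T1-Sca1- cells, SD, n = 4), Cox4i1 (473 ± 21) and Cox6a1 (461 ± 46.2) were among the most abundant genes of all complexes. Atp5b had the highest level of all members (1292 ± 18.1), followed by Cox8a, Atp5a1 (506 ± 9.42), Cox4i1 and Cox6a1, and neighbors among these last 4 differed by less than 2 SD of the more variable of the pair.

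In complex V, 6 of 17 tested genes were lower and 3 higher (median -0.10). The lowest values were those of the alpha, beta and b subunits. Atp5b, the catalytic beta subunit (ENSMUSG00000025393, GRCm38 chromosome 10, 128083273 to 128090391, plus strand), was the most abundant member, with normalized counts of 29859, 28719, 27615 and 27237 in the 4T1-Sca1+ libraries and 37642, 38624, 37629 and 37227 in the 4T1-Sca1- libraries. Atp5a1, the alpha subunit, had normalized counts of 14708, 14194, 13942 and 13742 in the 4T1-Sca1+ libraries and 18613, 19289, 18963 and 19436 in the 4T1-Sca1- libraries. In both, the groups were far apart relative to their spread. Atp5b fell by 24.3%, and Atp5a1 fell by 25.2%. The log2 fold changes were -0.40 ± 0.04 (SE, adjusted p = 1.85e-07) for Atp5b and -0.42 ± 0.04 (SE, adjusted p = 8.27e-08) for Atp5a1. Of the other subunits of the F1 part, gamma (Atp5c1, -0.08 ± 0.05, adjusted p = 0.164) and delta (Atp5d, -0.14 ± 0.06, adjusted p = 0.0583) were not called, and epsilon (Atp5e, 0.12 ± 0.05, adjusted p = 0.047) was just called higher. Atp5f1, the b subunit of the peripheral stalk, was lower at -0.38 ± 0.04 (SE, adjusted p = 4.97e-07), with no overlap, and is named after its value was seen. The calls of Atp5j2 (-0.20) and Atp5o (-0.15), also lower, were of smaller size. The 17 genes together took 0.457 ± 0.014% of all counts in 4T1-Sca1+ and 0.544 ± 0.0026% in 4T1-Sca1- libraries.

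The c subunit, which forms the proton-driven ring, is encoded by 3 genes for the same mature protein. Atp5g3 had normalized counts of 4252, 4158, 4191 and 4208 in the 4T1-Sca1+ libraries and 4005, 4033, 3908 and 3779 in the 4T1-Sca1- libraries, with groups apart, and a log2 fold change of 0.11 ± 0.04 (SE, adjusted p = 0.0288). Atp5g1 had normalized counts of 323, 276, 352 and 354 in the 4T1-Sca1+ libraries and 366, 424, 381 and 438 in the 4T1-Sca1- libraries, also apart, and -0.29 ± 0.08 (SE, adjusted p = 0.00697), in the opposite direction, and Atp5g2 was not called (-0.19 ± 0.19, adjusted p = 0.403). Atp5g3 made up 98.2 ± 0.0845% of their summed level per transcript length in 4T1-Sca1+ and 97.7 ± 0.216% in 4T1-Sca1- cells. Atp5g1 and Atp5g2 have near-identical copies elsewhere in the genome and Atp5g3 has none, and the reference transcript of Atp5g1 has 4715 bases, against 723 for Atp5g3, and the part of both in this share was not tested. Leaving out 1 library ended the call of Atp5g3 for 4T1-Sca1+ replicates 1 and 4 and 4T1-Sca1- replicates 1, 3 and 4, and that of Atp5e for these and 4T1-Sca1- replicate 2, so that 1 gene of complex V was called higher in 5 of these fits. That gene was Atp5s, a coupling factor-like gene with few counts (0.70 ± 0.21, adjusted p = 0.00762), 38.9 to 43.9 against 16.7 to 38.0 normalized counts, named after its value was seen.

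Some members have near-identical copies elsewhere in the genome. Among tested members, 23 have another annotated gene that matches their coding sequence at 95% identity or more over at least 80% of its length. Of these 10 were lower (43.5%) and 3 higher (13.0%). Of the 65 without such a copy 31 were lower (47.7%) and 8 higher (12.3%), beside 30.2% and 31.3% of all genes tested. Low levels per transcript length among those with copies included Ndufb4 (2.04 ± 0.391 CPM per kilobase in 4T1-Sca1- cells), Atp5g2 (2.71 ± 0.275), Sdhaf1 (3.05 ± 0.323), Ndufab1 (3.14 ± 1.06), Atp5l (5.29 ± 0.226), Atp5g1 (5.59 ± 0.474) and Cox7c (9.05 ± 1.29). Members without such a copy also had low levels, among them Sdhaf3 (0.704 ± 0.0689), Ndufaf3 (4.52 ± 0.301) and Sdhaf4 (4.93 ± 0.683). The part of the copies in these levels was not tested. How the authors treated reads that fit several places is not given in the sources used here. The values of all 23 tested members with copies are uncertain to that extent. Cox5b, Uqcrb, Uqcr10, Uqcr11, Cox6c, Cox7a2l, Cox7b, Atp5f1, Atp5o, Ndufa12, Ndufb3, Ndufb11, Ndufs3 and Ndufs6 are among the 23. Without members that have copies, complex V had 3 lower genes (Atp5a1, Atp5b and Atp5j2), and complex IV had 1 lower and none higher. The exons of 21 tested members are crossed on the other strand by exons of a counted gene, among them Ndufs1, Uqcrb, Uqcrc2, Cox4i1, Cox6c, Sdhaf2, Atp5f1 and Atp5a1, and the kit named in the labels does not mark strand.

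GC content moved with the result in complex IV. Log2 fold changes followed transcript GC content weakly over all genes tested (Spearman's rho 0.28 across genes) and over the members (0.12). With transcript length the rho was -0.30 over the members and 0.04 over all genes tested. The median transcript length was 977 bases for tested members and 3006 for all genes tested. With length-corrected offsets 35 members were lower and 15 higher, beside 3638 and 3590 of all genes tested. With offsets corrected for GC content within each library, 49 members were lower and 12 higher. Complex III had 8 of 9 lower and complex V 8 of 17, while among all 11717 genes tested 3880 were lower and 3794 higher. Cox4i1 (-0.20, adjusted p = 6.99e-05), Cox6a1 (-0.21, adjusted p = 7.29e-05) and Cox8a (-0.15, adjusted p = 0.00198), whose transcripts have a GC content of 58.0%, 58.8% and 58.5%, were then called lower. Cox7b (42.0%) and Cox6c (47.2%) were no longer called. Sdha, Sdhb, Uqcrc1, Uqcrc2, Ndufv1, Ndufs4, Atp5a1 and Atp5b remained lower under this correction, with log2 fold changes from -0.52 to -0.30.

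**Figure D4:**
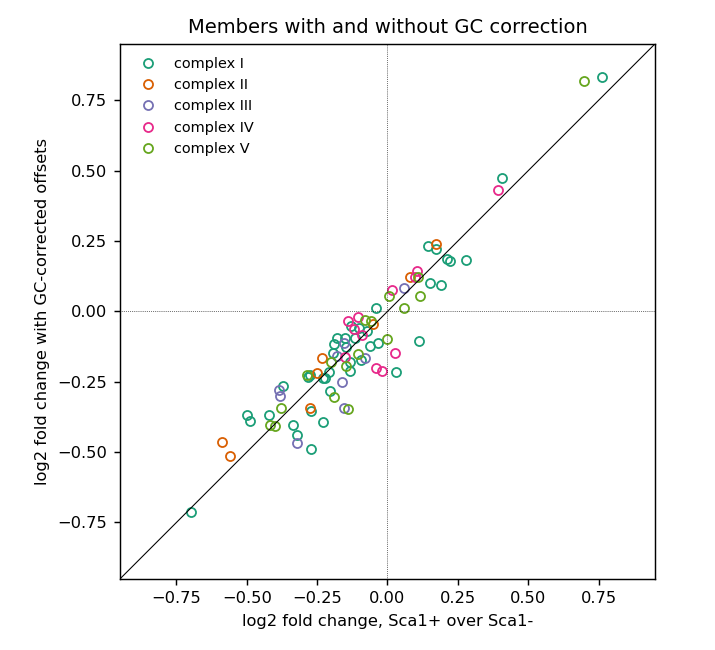
Log2 fold change of each tested member as reported (horizontal axis) and with offsets corrected for transcript GC content (vertical axis), colored by complex, with the line of equality. Points of complex IV near 0 on the horizontal axis spread from about the values of Cox6a1 (-0.21) to Cox5a (0.14) on the vertical one.

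Other genes of the pathway were counted from lists. Their counts stand beside shares of 30.2% lower and 31.3% higher among all genes tested. Of 12 tested genes for the electron carriers, cytochrome c and coenzyme Q synthesis, 8 were lower and none higher (median -0.39). The lowest was Coq9 (-0.61 ± 0.07, adjusted p = 7.45e-07), a lipid-binding protein of coenzyme Q synthesis, and among the 8 called Coq4 lay nearest to 0 (-0.23 ± 0.08, adjusted p = 0.0172). Cycs, cytochrome c, had 54.2 ± 8.13 against 77.1 ± 9 normalized counts, a difference of -0.49 ± 0.14 (SE, adjusted p = 0.00627) on the log2 scale, and its genomic copies were not examined. Of 41 tested assembly factors without a member symbol, 15 were lower and 3 higher (median -0.10), from Atpaf2 (-0.60 ± 0.05, adjusted p = 1.04e-08), a chaperone of the alpha subunit of complex V, to Cox14 (0.65 ± 0.08, adjusted p = 1.36e-06), a complex IV factor. Of 17 tested genes of the tricarboxylic acid cycle and pyruvate dehydrogenase, 14 were lower and none higher (median -0.16), with the lowest value in Cs, citrate synthase (-0.50 ± 0.05, adjusted p = 7.65e-08), and the one nearest to 0 among those called in Dlat (-0.11 ± 0.05, adjusted p = 0.0429). Of 19 genes for outer membrane channels, carriers, import and chaperones, 17 were lower and 1 higher (median -0.35), from Hspa9 (-0.55 ± 0.05, adjusted p = 2.92e-08), the import chaperone, to Tomm20 (0.52 ± 0.07, adjusted p = 6.29e-06), an import receptor.

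Genes for mitochondrial DNA and its transcription divided, with 3 of 12 lower and 2 higher (median -0.03), beside 30.2% and 31.3% of all genes tested. Lrpprc, which stabilizes mitochondrial messenger RNA, had the lowest value (-0.39 ± 0.05, adjusted p = 5.29e-06) and Ssbp1 the highest (0.38 ± 0.07, adjusted p = 0.000148). Tfam, the packaging and transcription factor of mitochondrial DNA, had 857 ± 45.3 against 859 ± 45 normalized counts (0.01 ± 0.06, adjusted p = 0.913). Of 7 tested nuclear regulators, 2 were lower and 1 higher. Pprc1, a coactivator of the PGC-1 family, was lower at -0.37 ± 0.04 (SE, adjusted p = 1.38e-06) and Nrf1, whose product binds the core shown in capitals above, at -0.34 ± 0.06 (SE, adjusted p = 6.05e-05). Gabpb1, a subunit of GABP, was higher at 0.18 ± 0.06 (SE, adjusted p = 0.0222). Ppargc1b (0.22 ± 0.14, adjusted p = 0.182) and Esrra (-0.06 ± 0.09, adjusted p = 0.543) were not called, and Ppargc1a was not tested, with at most 18 counts in a library.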

How the data were processed

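RNA-Seq counts of 4 4T1-Sca1+ and 4 4T1-Sca1- libraries were analyzed. The authors deposited raw counts per Ensembl gene for 16341 genes, and a table of normalized signal for 15372 genes. The deposited signal was the counts over DESeq2 size factors (largest relative difference 4.88e-15). The labels' processing notes name cutadapt 1.16 and STAR 2.5.3a, and the counting tool, the use of strand and the treatment of multiply mapped reads are not given in the sources used here. Symbols, positions, transcript lengths and GC content were taken from GENCODE M21 (GRCm38), where 16202 counted genes were found and 139 were not.

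The counts entered the quasi-likelihood test of edgeR 4.0.16 (R 4.3.3) without change (filterByExpr, TMM, glmQLFit and glmQLFTest, two-sided, no covariate). P-values were adjusted by Benjamini-Hochberg over all 11717 genes, with a call below 0.05. SE were computed as |log2 fold change| over the root of F. Normalized counts are counts divided by the size factors. Levels between genes were compared as CPM per kilobase of a reference transcript. Near-identical copies were sought with blastn 2.17.0 from coding sequences (at least 95% identity over at least 80% of the length). The test was checked on simulated data. With total counts of 13561804 to 16968215, the common biological coefficient of variation was 0.0541.

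The members, the lists of other genes and the rule for named genes were chosen with earlier results of these data known. The values of a single member are not reported here. In each complex, the rule took the 2 highest and 2 lowest log2 fold changes among called genes averaging at least 100 normalized counts. It also took a set of central subunits, in which Uqcrc1, Cox4i1 and Cox5a stood beside catalytic ones. Isoforms with at least 10 counts in a library, any change of 2-fold and Ly6a were included. For each list of other genes it took the highest and lowest called gene, with Cycs, Tfam, Ppargc1a, Ppargc1b, Pprc1, Esrra and Nrf1. Alternatives were other scalings (DESeq2 size factors, library totals, upper quartile), no filter or a minimum of 10 counts per library, the Wald test of DESeq2 1.42.0, limma 3.58.1 with voom or on log2(signal + 1), a replicate block, GC-corrected and length-corrected offsets, stricter calls (0.01, or a change of 0.5 or more in log2), subunits only, complexes by symbol prefix, and leaving out each library. Leaving out members with near-identical copies, and leaving out both libraries at the end of the GC component, were chosen after seeing the data.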

Additional observations from a re-analysis of the deposited data

Results flagged for a closer look

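Groups of 4 libraries were screened for a single library far from the other 3, for the named members and the mean of each complex. Of 80 groups screened, 4 had a gap that passed Dixon's critical value for 4 samples, and chance gives about 1 in 20. Cox5b had 643 normalized counts in 4T1-Sca1- replicate 4, where the other 3 libraries of that group lay between 1014 and 1084. Cox6a1 had 4630.5 normalized counts in 4T1-Sca1- replicate 2, where the others lay between 3763 and 3899, and Cox8a had 5047 in 4T1-Sca1+ replicate 3, where the others lay between 4607 and 4656. These last libraries are the pair at the end of the GC component, and both transcripts are rich in GC. The mean log2 CPM of complex II was 5.12 in 4T1-Sca1+ replicate 2, where the others lay between 5.00 and 5.01. The cause of these values was not tested.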

How the results depend on the processing

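Under all alternatives the median log2 fold change of the members stayed below 0. It was -0.15 with GC-corrected offsets and with limma on the deposited signal, and -0.14 to -0.12 when each library was left out. It was -0.087 with length-corrected offsets, -0.090 with library totals alone and -0.10 with upper-quartile scaling. Over all genes tested the median was -0.0013, 0.050 and 0.037 in these last settings. The members' median minus that of all genes was -0.086 with length-corrected offsets, and -0.14 with either scaling, as with TMM. Requiring a change of 0.5 or more in log2 left 3 members lower and 2 higher, which were 1 lower and 1 higher in complex I, 2 lower in complex II, 1 higher in complex V, 0 lower in complexes III, IV and V and 0 higher in complex IV, by construction of the limit. At an adjusted p under 0.01, 6 members were higher, with 4 in complex I and 1 in complex V, and 0 were lower in complex IV. With DESeq2, 7 members were higher and 0 in complex IV. Complex IV had 0 lower and 3 higher with length-corrected offsets, library totals or upper-quartile scaling, 3 higher with GC-corrected offsets, 2 higher without both libraries at the end of the GC component, and 1 lower and 0 higher without members that have near-identical copies, which also left 3 lower in complex V. Complex II had 1 gene higher with GC-corrected offsets or library totals, and 3 lower when only subunits were counted. Complex V had 1 higher with DESeq2 size factors or no low-count filter. Leaving out each library gave 37 to 45 members lower and 6 to 12 higher, with 4 to 9 higher in complex I, 0 to 4 lower in complex IV and 1 to 3 higher in complex V.

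Of 34 named members, 19 kept direction and side of the threshold under 21 alternatives, and 4 also when a change of 0.5 or more in log2 was required, which ended 24 calls by construction. Cox4i1 turned to 0.0025 with length-corrected offsets and 0.0029 with library totals. The median log2 fold change over all genes tested was itself higher than with TMM, by 0.043 with library totals and 0.029 with upper-quartile scaling. Cox6a1 turned to 0.037 with length-corrected offsets, 0.024 with library totals and 0.010 with upper-quartile scaling, and ranged from -0.10 to 0.050 when each library was left out. Cox8a turned to -0.15 with GC-corrected offsets and ranged from -0.022 to 0.067 when each library was left out. The cause of these changes was not tested. The labels number replicates 1 to 4 in both groups. Deviations of same-numbered libraries from their group means correlated at 0.096, -0.15, -0.034 and -0.0011, and replicate number was not taken as a pairing. With replicate number as a block, 42 members were lower and 9 higher, and 1 gene of complex V was higher.

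Depth limits Ndufb4, Sdhaf3, Atp5g2, Atp5l and Atp5s, each with fewer than 60 normalized counts in every library. The libraries' origin in separate sorts is not stated.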

Other observations

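The genes named here act on the respiratory complexes without being subunits, and were chosen after their values were seen. Atpif1, the inhibitor protein of the ATP synthase, rose by 0.41 on the log2 scale while Atp5a1 and Atp5b fell, with 2154 ± 115 normalized counts in 4T1-Sca1+ and 1637 ± 25.9 in 4T1-Sca1- cells (0.41 ± 0.05, adjusted p = 9.58e-07 by edgeR). Of the chaperones of the catalytic head, Atpaf2, for the alpha subunit, was lower and Atpaf1, for the beta subunit, was higher (0.45 ± 0.16, adjusted p = 0.0202), from 86.1 ± 16.4 against 62.9 ± 11.4 normalized counts with overlapping groups. Of the 41 tested assembly factors, 23 were not called, among them the complex IV factors Sco1, Sco2, Cox11, Cox15, Cox16, Cox17, Cox19, Cox20, Coa4, Coa6, Coa7, Pet100, Taco1, Cmc1, Cmc2 and Higd2a. The complex IV factors Surf1 (-0.42 ± 0.06, adjusted p = 8.78e-06), Cox10 (-0.42 ± 0.05, adjusted p = 3.08e-06), Cox18 (-0.37 ± 0.07, adjusted p = 0.000104), Coa3 (-0.37 ± 0.05, adjusted p = 1.62e-05) and Coa5 (-0.34 ± 0.05, adjusted p = 1.48e-05) were lower, and Cox14 was higher. Higd1a, a hypoxia-induced inner membrane protein, was lower (-0.55 ± 0.06, adjusted p = 9.13e-07). The carriers that serve ATP synthesis were lower too, with Slc25a3, the phosphate carrier, at -0.36 ± 0.04 (SE, adjusted p = 4.26e-07) and the ADP/ATP carriers Slc25a4 and Slc25a5 at -0.11 ± 0.04 (SE, adjusted p = 0.0254) and -0.14 ± 0.04 (SE, adjusted p = 0.00756).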
